A study of Mus musculus with 6 samples.

Results

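The Fraser complex is an assembly of large matrix proteins beneath epithelia, and 5 genes of it and its partners were followed here among the 21959 genes of the count table: Fras1, Frem1, Frem2, Grip1 and Npnt. They were listed by name and selected on measured values of these same libraries, because Fras1 was higher and Frem2 was lost in the paclitaxel-resistant line, so their levels in both lines are given as a description with no test. The libraries came from MPC, a mouse gastric adenocarcinoma cell line, and from MPC-PTX, a line raised from it with paclitaxel (PTX), a drug that stabilises microtubules. The paper that describes the lines calls them MTC and MTC-R. Each line had 3 libraries. Both lines carry the genotype CDH1-/-;Trp53-/-, so the control lacks the same alleles as the resistant line. They descend from gastric organoids of Trp53 fl/fl;Cdh1 fl/fl mice with the Mist1-CreER recombinase, grown as tumours under the skin of nude mice. MPC was labelled as control, and MPC-PTX had gone through more than 30 cycles of PTX, each with 2 days of drug and 5 days of fresh medium. Both lines were put through monoclonal selection, so a difference between them can also be a difference between clones, and the drug and the clone cannot be told apart. The labels do not say whether the 3 replicates of a line were separate cultures, so that p-values measure only the spread between these libraries, which may be technical.

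In embryonic epithelia, Fras1, Frem1 and Frem2 assemble at the basement membrane and help to hold the epithelium to the tissue under it. Each of them depends on the others to remain there, and loss of any of them causes blistering, fused digits, covered eyes and missing kidneys, the picture of Fraser syndrome and its relatives. Fras1 and Frem2 are made as transmembrane proteins, the adaptor Grip1 brings them to the basal side of the cell, and proprotein convertases release their ectodomains. Frem1 is secreted. Nephronectin, the product of Npnt, is a matrix ligand that binds the Fraser complex and is read by integrin alpha8 beta1 in the mesenchyme next to the ureteric bud.

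The reference promoters of the 2 members with a promoter entry at their annotated start and with reads in MPC are shown first, because their transcripts differed so much in level: Frem2 had a trace of reads in MPC and none in MPC-PTX, while Npnt was abundant in both. The RefSeq promoter table for GRCm38.p6 matched 4 of the 5 members by symbol, namely Frem1, Frem2, Grip1 and Npnt. Each window holds the 250 bases upstream of the start, 5′ to 3′ on the minus strand, and capitals mark each CG.
Frem2 chr3:53657356-53657605 minus strand: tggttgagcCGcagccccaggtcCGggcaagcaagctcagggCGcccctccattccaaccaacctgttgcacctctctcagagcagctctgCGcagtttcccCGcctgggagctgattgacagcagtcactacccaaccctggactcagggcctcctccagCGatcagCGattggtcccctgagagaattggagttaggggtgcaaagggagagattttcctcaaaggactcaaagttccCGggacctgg
Npnt chr3:132950292-132950541 minus strand: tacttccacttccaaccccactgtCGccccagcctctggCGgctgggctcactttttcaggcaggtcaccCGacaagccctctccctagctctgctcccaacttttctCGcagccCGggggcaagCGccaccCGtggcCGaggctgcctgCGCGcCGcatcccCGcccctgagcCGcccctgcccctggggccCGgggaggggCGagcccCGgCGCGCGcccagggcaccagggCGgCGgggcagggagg

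The Frem2 window held 8 CG, a number that 43% of 32851 promoter windows of the same length reached or passed, and its GC content was 59.6%. The windows counted here and below leave out chromosome 18. The Npnt window held 21 CG, a number reached by 16.3% of the windows, with a GC content of 74.0%. The median window held 6 CG, and 92.1% held at least 1. TATAAA, searched on both strands, was in neither window and in 12.4% of all windows. GGGCGG, searched on both strands and overlapping a CG by its own letters, occurred 3 times in the Npnt window and 0 times in the Frem2 window, and was in 32.7% of all windows. These matches describe letters and are not evidence of binding, and neither methylation nor chromatin was measured.

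The libraries held 16574580 to 23148182 counts, with 13897 to 14295 genes detected. Across the 11795 genes with enough counts, 1668 were higher and 1841 were lower in MPC-PTX by the quasi-likelihood test of edgeR (Benjamini-Hochberg adjusted p below 0.05), with a median log2 fold change of 0.04. MPC replicate 3 stood apart from the other MPC libraries. The mean chi-square per gene was 61.1 between MPC replicates 1 and 3, 32.4 between 2 and 3, and 15.0 between 1 and 2. The deviations of MPC replicate 3 from each gene's mean over the 6 libraries followed GC content with a Spearman correlation of -0.425 and transcript length with 0.297. In MPC replicate 1 these correlations were 0.426 and -0.403, and in MPC replicate 2 they were 0.274 and -0.206. They hold the difference between the lines as well as the spread within MPC. Without MPC replicate 3, 3020 genes were higher and 3227 were lower. The epithelial identity of both lines was plain, with Epcam, Krt8, Krt18 and Krt19 at means of 767 to 3020 CPM (counts per 1000000, on library sizes scaled by TMM). All 4 were lower in MPC-PTX, with log2 fold changes of -0.59 to -1.02. Stomach secretory genes were nearly absent, and Tff1, Tff2, Gkn2 and Pgc were at 0 in all 6 libraries. Of the 18 stomach markers in the table, 8 passed the filter, of which 1 was higher (Bhlha15, log2 fold change 1.68) and 7 were lower, with Anxa10 at -8.62 and Ctse at -7.54 at the low end. Bhlha15 passed through MPC-PTX alone and Anxa10 through MPC alone, so the filter favoured their direction. Markers of other cells stayed low: the summed CPM of 8 fibroblast genes was 9.83 to 10.9 in MPC and 8.63 to 9.92 in MPC-PTX, and that of 6 endothelial genes was 3.40 to 4.78 and 3.20 to 3.45. The 8 leukocyte genes summed to 317 to 355 and 268 to 275 CPM, carried by Cd14 and Cd68, with at most 8 counts for any other. The 5 mesothelial genes summed to 460 to 517 and 296 to 315 CPM, carried by Msln, with at most 16 counts for any other. Of these 4 lists, Col1a1, Cd14 and Msln were lower at the adjusted threshold, no gene was higher, and their part in the results was not tested.

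Fras1 and Frem2 were traces of similar size in MPC (29 and 33 counts over its 3 libraries) and parted in MPC-PTX, where Fras1 had 680 counts over the 3 libraries and Frem2 had none. Fras1 (ENSMUSG00000034687, chr5:96373955-96784728, plus strand, with this and all later positions from GENCODE M21 on GRCm38) encodes a transmembrane protein of the complex. It had 12, 3 and 14 counts in the MPC libraries, or 0.638, 0.155 and 0.673 CPM. In MPC-PTX it had 262, 241 and 177 counts, or 11.2, 10.9 and 10.5 CPM. Every MPC-PTX library lay far above every MPC library, and after scaling the 3 MPC-PTX values were close to each other. The means were 0.488 ± 0.289 CPM (SD, n = 3) in MPC and 10.9 ± 0.338 CPM in MPC-PTX, a log2 fold change of 4.45 (SE 0.31). As a ratio of summed counts per scaled library size this was 22.2-fold higher in MPC-PTX, with an exact 95% interval of 15.3 to 33.4 that covers counting error only. The low end rested on few reads, and without MPC replicate 2, the library with 3 counts, the log2 fold change was 4.04. Fras1 has the longest transcript of the 5 genes, 15848 bases, and with each library corrected for GC content and transcript length the log2 fold change was 4.25.

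Frem2 (ENSMUSG00000037016, chr3:53513938-53657355, minus strand) encodes the transmembrane relative of Fras1. It had 10, 12 and 11 counts in the MPC libraries, or 0.531, 0.619 and 0.529 CPM, and 0 counts in each of the 3 MPC-PTX libraries. The MPC libraries were alike, with a mean of 0.560 ± 0.0513 CPM (SD, n = 3). A count of 0 over the MPC-PTX libraries allows 3 counts in all, or 0.0481 CPM. Against the MPC counts as they stand, Frem2 was at least 11.6-fold lower in MPC-PTX, a limit that leaves out their own counting error. That bound follows from the number of reads, and it was 7.27-fold without MPC-PTX replicate 1 and 7.50-fold without MPC-PTX replicate 2. A level under this limit was not detectable at this depth.

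The share of Frem2 among the reads of Fras1 and Frem2 in a library needs no scaling by library size. It was not corrected for transcript length, 15848 bases for Fras1 and 12348 for Frem2, or for GC content. Frem2 gave 10 of 22, 12 of 15 and 11 of 25 of the joint counts in the MPC libraries, or 45.5%, 80.0% and 44.0%. Over MPC this was 33 of 62 counts, or 53.2%, with an exact (Clopper-Pearson) 95% interval of 40.1 to 66.0%. In MPC-PTX it was 0 of 262, 0 of 241 and 0 of 177, or 0 of 680 in all, for which the limit of 3 counts is a share of 0.441% and the exact upper bound is 0.541%. Frem2 thus held about as many of the joint counts as Fras1 in MPC and none in any MPC-PTX library. Reads carried no molecular identifiers, so that these intervals and limits cover counting error only.

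**Figure D1:**
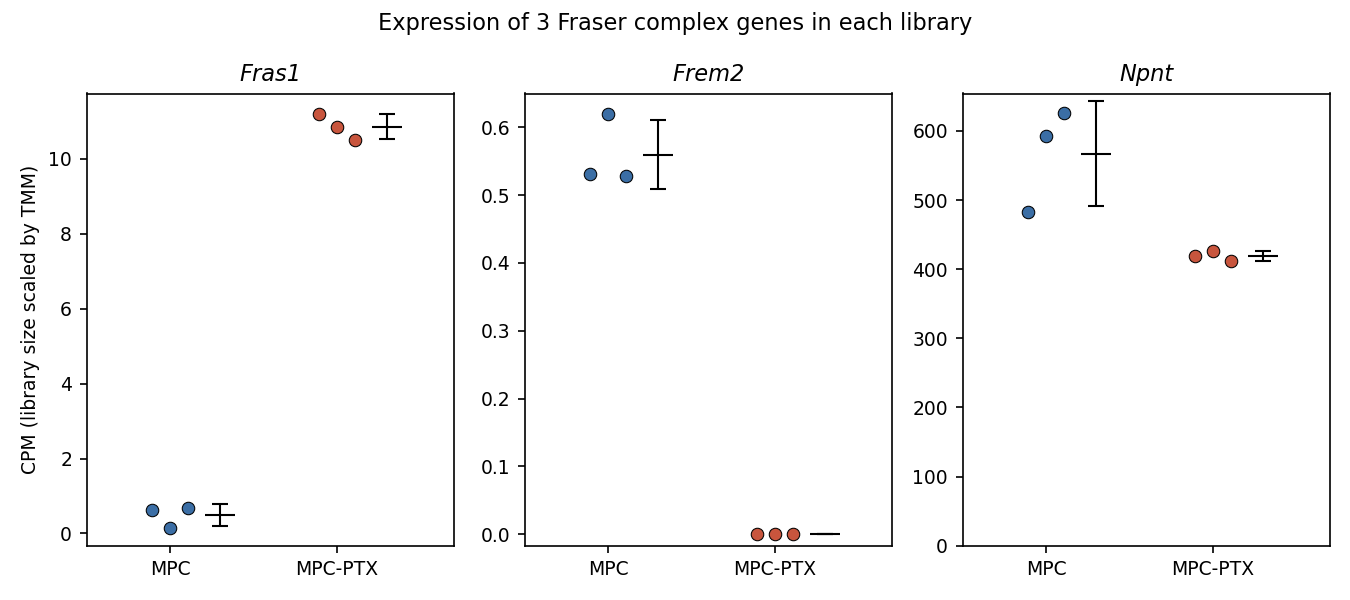
CPM (vertical axes, library size scaled by TMM) of Fras1, Frem2 and Npnt in the 3 MPC and 3 MPC-PTX libraries, with 1 point per library and the mean and SD (n = 3) as a bar beside them. Fras1 sits at 10.5 to 11.2 CPM in MPC-PTX against at most 0.673 in MPC, Frem2 is at 0 in all MPC-PTX libraries, and Npnt is at 412 CPM or more in every library.

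Frem1 and Grip1 were at or near 0 in both lines. Frem1 (ENSMUSG00000059049, chr4:82897920-83052339, minus strand), the secreted member that completes the complex, had 0 counts in all 6 libraries, which allows up to 0.0508 CPM in MPC and 0.0481 CPM in MPC-PTX. Grip1 (ENSMUSG00000034813, chr10:119453830-120087261, plus strand), the PDZ adaptor, had 0, 3 and 1 counts in MPC and 0, 2 and 0 in MPC-PTX. The ratio of MPC to MPC-PTX for Grip1 was 2.11, with an exact 95% interval of 0.303 to 23.4, so that no direction could be read at this depth. The products of Fras1, Frem1 and Frem2 normally stand together in the basement membrane, and no library held reads of all of them.

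Npnt was the abundant member. Npnt (ENSMUSG00000040998, chr3:132881745-132950291, minus strand) had 9074, 11508 and 13032 counts in MPC, or 482, 593 and 626 CPM. In MPC-PTX it had 9806, 9445 and 6933 counts, or 419, 426 and 412 CPM. All MPC-PTX libraries lay below all MPC libraries, and the gap between the groups was smaller than the range within MPC. The means were 567 ± 75.5 CPM (SD, n = 3) in MPC and 419 ± 6.96 CPM in MPC-PTX, a log2 fold change of -0.44 (SE 0.10), and the fit gave -0.54 to -0.40 when any 1 library was left out.

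Of the 5 genes, 3 passed the filter on low counts, and Fras1 passed through MPC-PTX and Frem2 through MPC alone, so that these had to differ. The CPM of the 2 lines did not overlap for Fras1, Frem2 and Npnt, and they did not overlap for 46.9% of all tested genes. Since the genes were chosen on this contrast, nothing is read from that count.

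Levels of different genes can be compared only per length, as CPM per kb of transcript. Npnt had 123 ± 16.3 in MPC and 90.7 ± 1.51 in MPC-PTX (SD, n = 3), above 95.2% and 93.3% of the 11776 tested genes with a known length. Fras1 stood above 0.238% of them in MPC and above 9.66% in MPC-PTX, with 0.0308 ± 0.0183 and 0.685 ± 0.0213 CPM per kb. Even in MPC-PTX it remained below most of the tested genes. Frem2 had 0.0453 ± 0.00415 CPM per kb in MPC, and its difference from Fras1 there was smaller than the SD of Fras1. Grip1 had 0.0126 ± 0.0148 and 0.00563 ± 0.00974 CPM per kb. In MPC the order of the means was Npnt, Frem2, Fras1 and Grip1, with Frem1 at 0. Frem2 and Fras1 did not overlap there, by a narrow margin on few reads. The lowest Frem2 library had 0.0428 and the highest Fras1 library 0.0424. The value of Grip1 in 1 library (0.0289) lay within the range of Fras1. In MPC-PTX the order was Npnt, Fras1 and Grip1, with no overlap between Npnt and Fras1 or between Fras1 and Grip1, and Frem1 and Frem2 were at 0.

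**Figure D2:**
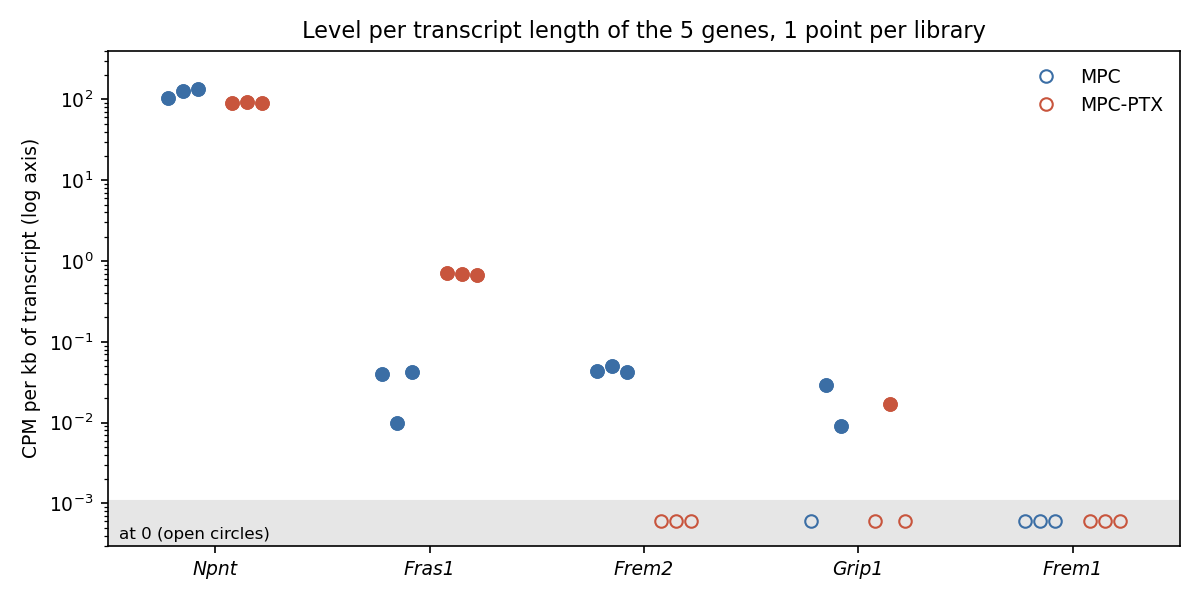
Level of each of the 5 genes as CPM per kb of transcript (vertical log axis), with 1 filled point per library and open circles in the grey band for libraries with 0 counts. Npnt lies at 89.2 to 136 in all libraries, Fras1 moves from at most 0.0424 in MPC to at least 0.664 in MPC-PTX, and Frem2 has points above 0 in MPC alone.

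The genes that surround the complex were examined as lists, each chosen with earlier results of these data known. The share of all tested genes called at an adjusted p below 0.05 by edgeR's quasi-likelihood test was 29.7%, with 14.1% higher and 15.6% lower in MPC-PTX, and the lists are read against these shares. No list was tested as a set. Among the called genes, Gdnf, Gfra1, Trp63 and Krt14 passed the filter on low counts through MPC-PTX alone. Nid1 and Krt15 passed it through MPC alone. The filter thus favoured the direction of all these genes.

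Relatives, binding partners and processing enzymes of the complex did not pass the test. Of 16 such genes, 9 passed the filter on low counts and 0 were called in either direction. At an unadjusted p below 0.05 there was 1, Furin, and DESeq2 called 0. The median log2 fold change of the 9 was -0.03. Vwa2, a matrix protein known as AMACO that binds the Fraser proteins, had 32, 29 and 16 counts in MPC and 56, 40 and 36 in MPC-PTX, with a log2 fold change of 0.68 (SE 0.31, adjusted p = 0.136). The groups did not overlap in CPM, and the difference did not pass the threshold. Frem3, the remaining relative, had 1 count in 1 MPC library and none elsewhere. Hmcn2, a hemicentin, did not pass the filter at 13, 15 and 2 counts in MPC and 4, 0 and 3 in MPC-PTX. The log2 fold change was -0.17 for Egfl6, a matrix ligand of integrin alpha8 beta1, with 6 to 16 counts per library.

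Some of the genes that handle Fras1 and Frem2 inside the cell were expressed in both lines, beside the near absence of Grip1. The convertase gene Furin had 120 ± 8.35 CPM in MPC and 105 ± 3.86 in MPC-PTX, a log2 fold change of -0.19 (adjusted p = 0.0908). Pcsk6 was at 41.9 ± 6.23 and 46.0 ± 1.30 CPM, and Pcsk7 at 33.5 ± 1.25 and 30.8 ± 1.31 CPM. Pcsk4 had 2.92 ± 0.324 and 3.23 ± 0.331 CPM. The log2 fold changes of Pcsk4, Pcsk6 and Pcsk7 were 0.14, 0.14 and -0.12. Pcsk5 had 1 count in each line. Of the Grip1 partners, Gripap1, which binds Grip1, was at 32.6 ± 0.752 and 31.9 ± 1.21 CPM, a log2 fold change of -0.03 whose sign turned with the library size alone as scaling. Kif5b, a kinesin heavy chain of the family that Grip1 steers, had 1205, 1385 and 3476 counts in MPC and 3342, 3711 and 2911 in MPC-PTX. MPC replicate 3 thus lay with the MPC-PTX libraries for Kif5b, and its log2 fold change of 0.67 (SE 0.36, adjusted p = 0.204) became 1.20 (adjusted p = 1.41e-05) without that library. Kif5c had a log2 fold change of -0.51 (SE 0.42). Without MPC replicate 3 the calls in the list were 1 higher and 2 lower, Furin among them at -0.30 (adjusted p = 0.00112). Without MPC replicate 1 there was 1 higher, Pcsk6 (0.26, adjusted p = 0.024).

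Of 9 genes that encode receptors of nephronectin, 6 passed the filter, 1 was higher and 1 was lower, which is close to the 29.7% of all tested genes that were called. Itga8, the defining receptor subunit, had 0 counts in all 6 libraries, so that Npnt was abundant in cells with no reads of its alpha subunit. Its beta partner Itgb1 had 750 ± 101 CPM in MPC and 877 ± 5.07 in MPC-PTX, a log2 fold change of 0.23 (SE 0.10, adjusted p = 0.124). Itga5, the alpha subunit of the fibronectin receptor, rose from 14.4 ± 0.321 to 21.1 ± 1.27 CPM, a log2 fold change of 0.55 (SE 0.09, adjusted p = 0.00391, edgeR). Itgb6, an epithelial partner of the alpha V subunit, had 1651, 2165 and 2325 counts in MPC and 1205, 1100 and 843 in MPC-PTX. It fell by 1.04 on the log2 scale (SE 0.11, adjusted p = 0.000518), from 104 ± 13.8 to 50.4 ± 0.975 CPM, with no overlap. Itgav, Itgb5 and Itgb8 had log2 fold changes of -0.29, -0.09 and 0.86 and did not pass, and Itga4 and Itgb3 had too few counts for a test. Without MPC replicate 3, Itgb1 (0.29, adjusted p = 0.00057) and Itgb5 (-0.19, adjusted p = 0.0117) passed, giving 2 higher and 2 lower. Without MPC replicate 1, Itgav passed (-0.45, adjusted p = 0.0487), giving 2 lower.

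The genes of ureteric bud outgrowth, the step of kidney development that fails when the Fraser complex or nephronectin is missing, were higher in MPC-PTX in most of those tested. Of 16 genes, 10 passed the filter, 7 were higher and 0 were lower, where 14.1% of all tested genes were higher. All 10 log2 fold changes were above 0, and their median was 0.59. Gdnf, the growth factor that draws out the ureteric bud, had 14, 9 and 13 counts in MPC and 47, 42 and 37 in MPC-PTX, a log2 fold change of 1.72 (SE 0.25, adjusted p = 0.00232). Gfra1, its co-receptor, had 6, 4 and 5 counts in MPC and 40, 53 and 45 in MPC-PTX, a log2 fold change of 3.11 (SE 0.33, adjusted p = 0.000598). Neither gene overlapped between the lines, and both passed the filter through MPC-PTX alone, which favoured this direction. Ret, the receptor kinase through which both act, had 1 count over all 6 libraries. Eya1, a transcriptional regulator upstream of Gdnf in the kidney, had 55, 55 and 96 counts in MPC and 215, 234 and 171 in MPC-PTX, a log2 fold change of 1.52 (SE 0.20, adjusted p = 0.00163). Etv5 and Etv4, targets of receptor kinase signalling, rose by 0.89 and 0.56 on the log2 scale. Etv4 (adjusted p = 0.042) lost its call without MPC replicate 2 or any MPC-PTX library, with adjusted p of 0.100 to 0.139. Bmp4 and Hoxa11 rose by 0.63 and 0.49. Without MPC-PTX replicate 2, Bmp4 lost its call too (adjusted p = 0.0513), and 5 genes of the list were higher. Spry1, Wnt11 and Gata3 were not called, and Grem1, Sall1, Pax2 and Hoxd11 had 0 counts throughout.

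The basement membrane itself changed in both directions. Of 31 genes, 25 passed the filter, 7 were higher, 9 were lower and 9 were not called, with a median log2 fold change of -0.02. Higher were the collagen IV chains Col4a1, Col4a2, Col4a3 and Col4a4, the laminin chain Lamc1, perlecan (Hspg2) and Col15a1. Of these, Col4a3 had 19, 28 and 37 counts in MPC and 90, 88 and 71 in MPC-PTX, a log2 fold change of 1.49 (SE 0.22, adjusted p = 0.00258). Col4a4, its neighbour in the chain trio of kidney and lung, had a log2 fold change of 1.44 (SE 0.18, adjusted p = 0.0013). Among the lower genes were the laminin chains Lama3 and Lamb3, with log2 fold changes of -0.81 and -0.26. Nid1, which bridges laminin and collagen IV, had 46, 33 and 48 counts in MPC and 4, 4 and 8 in MPC-PTX, a log2 fold change of -3.02 (SE 0.39, adjusted p = 0.00144). Col18a1, a collagen of epithelial basement membranes, fell by 1.27 on the log2 scale (SE 0.06, adjusted p = 2.7e-05). Lamb1, Agrn, Itga3 and Dag1 were lower as well. Without MPC replicate 2 or any 1 MPC-PTX library, Lamb3, Agrn and Itga3 lost their calls, leaving 6 lower. Col15a1 lost its call without any of these libraries or MPC replicate 3, and Col4a1 without any 1 MPC-PTX library, which left 5 higher.

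Fras1 is a known target of the epidermal factor p63, so the genes of stratified epithelium were listed as well. Of 12, 8 passed the filter, 4 were higher and 2 were lower, with a median log2 fold change of 0.53. Trp63, the gene of p63, had 14, 8 and 15 counts in MPC and 53, 56 and 30 in MPC-PTX, a log2 fold change of 1.81 (SE 0.29, adjusted p = 0.00358). Krt14, a basal keratin, had 15, 4 and 9 counts in MPC and 690, 641 and 523 in MPC-PTX, a log2 fold change of 5.95 (SE 0.27, adjusted p = 2.2e-05). Its usual partner Krt5 had 1 count in 1 MPC library and in 2 MPC-PTX libraries. Krt6a rose by 1.67 (SE 0.28, adjusted p = 0.00451) and Krt16 by 0.91 on the log2 scale. Krt15, another basal keratin, and Sfn, a 14-3-3 protein of epithelia, went down, with log2 fold changes of -3.58 (SE 0.44, adjusted p = 0.00115) and -1.11 (SE 0.10, adjusted p = 0.000258). Perp and Pkp1 were not called, with log2 fold changes of -0.09 and 0.15. Krt5, Krt17, Dsg3 and Dsc3 did not pass the filter. Dsg3 had 6, 10 and 5 counts in MPC and 1, 0 and 0 in MPC-PTX. Krt17 went the other way, with 5, 4 and 3 in MPC and 10, 6 and 5 in MPC-PTX.

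**Figure D3:**
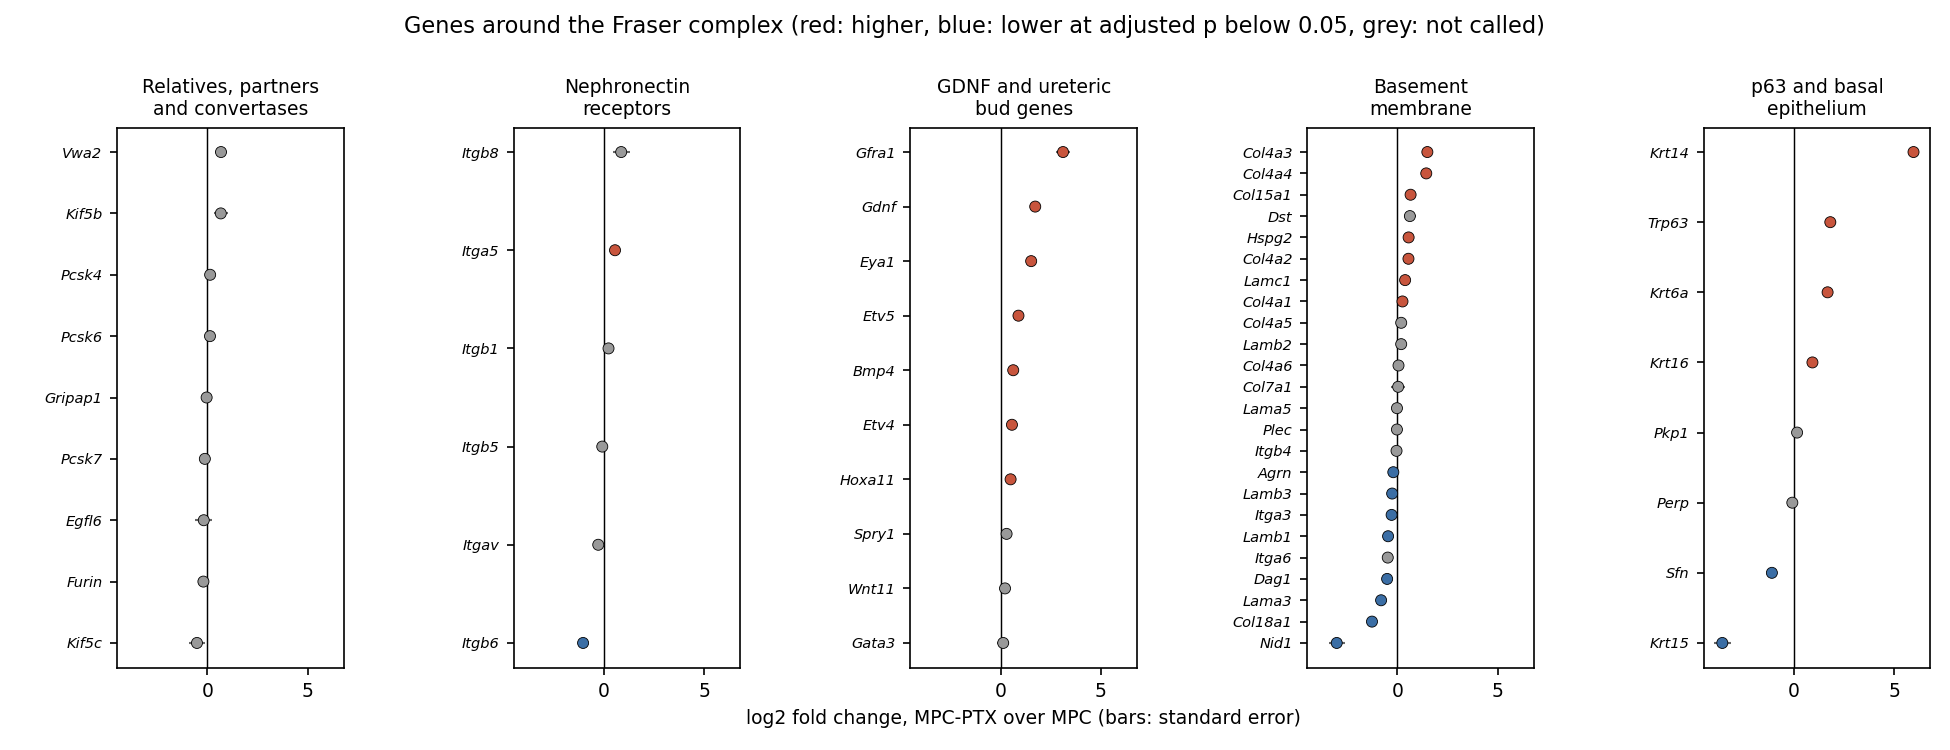
Log2 fold change of MPC-PTX over MPC (horizontal axes, bars are standard errors) for tested genes of the 5 lists, with red points higher and blue points lower at an adjusted p below 0.05 and grey points not called. The 9 relatives and partners lie within 0.69 of 0 and are all grey, and the 10 ureteric bud genes all lie above 0.

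The genes beside Fras1 and Frem2 changed less than these members did. Fras1 and Frem2 were chosen for their change in this contrast, so nothing is read from that difference. Within 1 Mb of the 5 members, 30 genes were tested, of which 5 were higher and 3 were lower, where 14.1% and 15.6% of all tested genes were. Around Fras1, 5 genes were tested and their log2 fold changes ran from -0.22 (Anxa3, lower, whose body starts 8.61 kb past Fras1) to 0.54 (Paqr3, higher), against 4.45 for Fras1. Around Frem2, 5 genes ran from -0.44 (Nhlrc3, lower) to 0.51 (Lhfp, higher). Proser1, the nearest tested neighbour of Frem2 at 32.2 kb, had 697, 750 and 895 counts in MPC and 886, 868 and 591 in MPC-PTX. Around Npnt, 7 genes were tested and Arhgef38, a gene 162 kb away, was higher, with 60, 74 and 164 counts in MPC and 280, 272 and 214 in MPC-PTX. Its log2 fold change was 1.30 (SE 0.32, adjusted p = 0.0218), and the call was lost without MPC replicate 2 or any 1 MPC-PTX library, with adjusted p of 0.0662 to 0.0765.

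Around Frem1, which had no reads, 6 neighbours were tested and 1, Snapc3, was higher with a log2 fold change of 0.59 (adjusted p = 0.015). The 6 log2 fold changes ran from 0.33 to 0.77. Around Grip1, 7 genes were tested, and Helb was higher (0.45) and Cand1 lower (-0.25). The gene bodies of Helb and Grip1 overlap, and with no statement on strand their reads cannot be told apart there. The count of 5 higher and 3 lower depended on single libraries. Without MPC replicate 3 it was 14 higher and 6 lower, and without MPC replicate 1 there were 5 lower. Without MPC replicate 2, MPC-PTX replicate 1 or MPC-PTX replicate 2 it was 1 higher and 0 lower, and without MPC-PTX replicate 3 it was 2 higher and 0 lower.

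**Figure D4:**
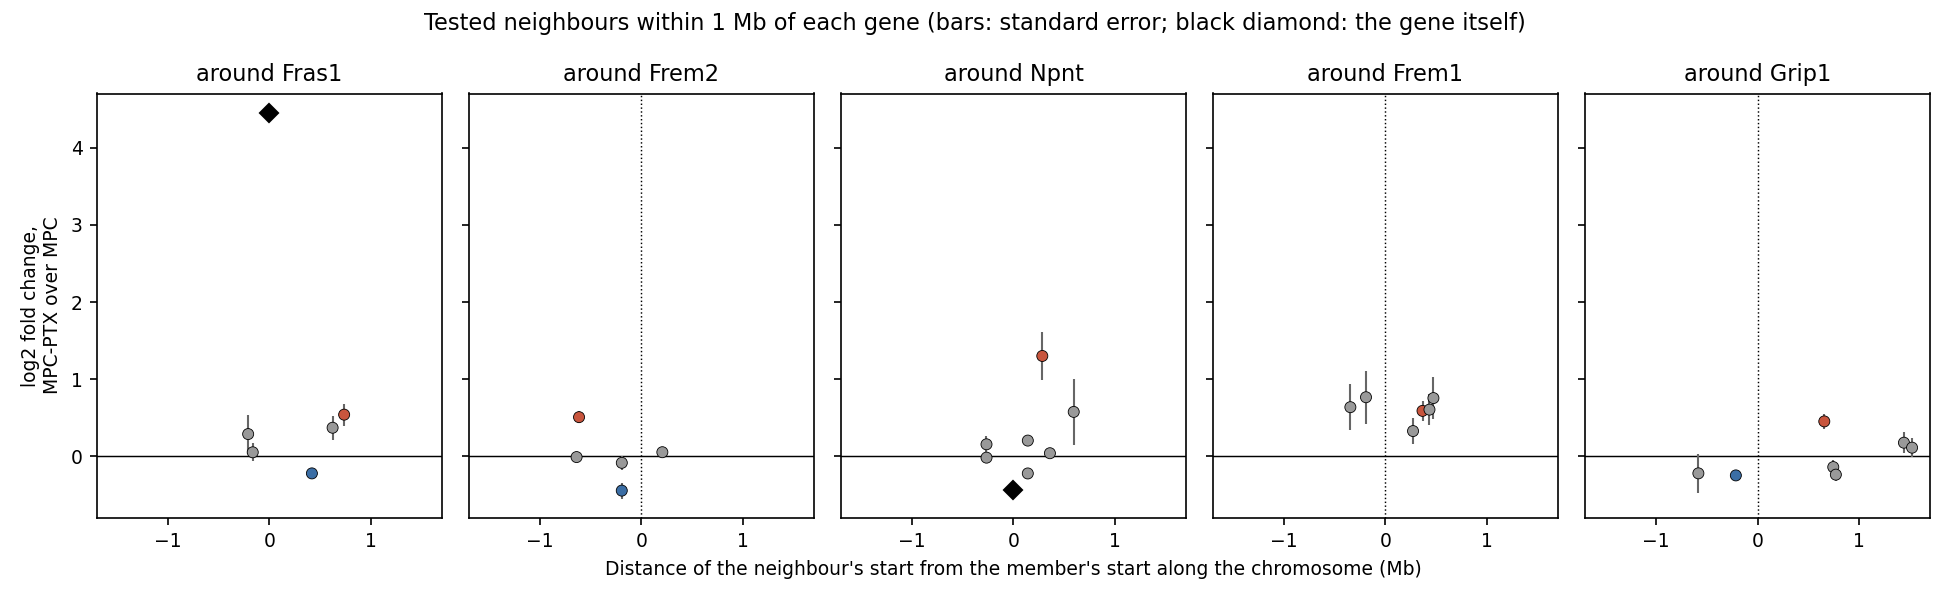
Log2 fold change of MPC-PTX over MPC (vertical axis, bars are standard errors) for the tested genes within 1 Mb of each member, by the distance between their start and that of the member in Mb (horizontal axes). Black diamonds mark Fras1 and Npnt. Dotted lines mark the starts of Frem1, Frem2 and Grip1, whose own fold change is not drawn. All neighbours of Fras1 lie between -0.22 and 0.54, under the diamond at 4.45 of Fras1, a gene chosen for its change.

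The genes most like each member were named by the smallest Euclidean distance between centred log2 CPM over the 6 libraries, as a description that shares these libraries and the difference between the lines. For Fras1 they were Sulf2, an enzyme that edits heparan sulphate (distance 0.765), the translation factor gene Eif5a2 (0.812) and the serine protease gene Prss12 (1.02). Sulf2 had 2, 0 and 1 counts in MPC and 61, 56 and 47 in MPC-PTX, Eif5a2 had 1, 0 and 2 and then 86, 92 and 56, and Prss12 had 4, 0 and 1 and then 118, 80 and 68. All 3 were close to 0 in MPC and present in each MPC-PTX library, a pattern that the choice by likeness to Fras1 favours. For Frem2 they were Adssl1 (0.224), Cyp2f2 (0.227) and Lgals9 (0.232), which kept reads in MPC-PTX, with 100 to 136, 26 to 34 and 475 to 621 counts there. For Npnt they were Marveld2 (0.0751), Ube2h (0.0799) and Endod1 (0.0804).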

How the data were processed

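Poly-A RNA of 3 MPC and 3 MPC-PTX libraries was sequenced. The authors trimmed reads with fastp 0.22.0, aligned them with HISAT2 and deposited raw counts per gene, neither normalized nor pooled. The genome build, annotation, counting tool and use of strand are not given in the sources used here. All 6 sample files matched the table of the series.

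Library sizes were scaled by TMM, genes were kept by filterByExpr with a minimum count of 10, and both lines were compared with glmQLFit (robust) and glmQLFTest of edgeR 4.0.16 in R 4.3.3, with Benjamini-Hochberg adjustment over 11795 genes and a threshold of 0.05. With 3 against 3 libraries an exact permutation test cannot go below 0.1. A count of 0 over a line was taken to allow 3 counts. Positions and lengths came from GENCODE M21 by Ensembl identifier, for 21902 of 21959 genes, and promoters from RefSeq.

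The members and lists were chosen with earlier results of these data known. Named were the 5 members, the tested partners and nephronectin receptors, Itga8, Frem3, Trp63, Krt5 and Krt14, list genes and neighbours within 1 Mb with an adjusted p below 0.05 and a log2 fold change beyond 1 in size, and the 3 genes most like each tested member (log2 CPM, prior count 2). Other names were added after their values were seen, and a few list genes are not reported here. Among the alternatives were DESeq2 1.42.0, its size factors, other filters, the replicate block, each library left out, and a loess correction (span 0.3) for GC content and length.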

Additional observations from a re-analysis of the deposited data

How the results depend on the processing

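The directions of Fras1 and Npnt held under every alternative that gave a value. With each library left out in turn, the log2 fold change ran from 4.04 to 4.72 for Fras1 and from -0.54 to -0.40 for Npnt, and the bound for Frem2 from 7.27 to 12.0. Fras1 and Frem2 gave no value with at least 10 counts required in every sample. Over the same left-out libraries the higher and lower calls ran from 803 to 3020 and from 1077 to 3227 for all genes, 0 to 1 and 0 to 2 for partners, 1 to 2 and 1 to 2 for nephronectin receptors, 5 to 9 and 0 for ureteric bud genes, 5 to 8 and 6 to 11 for basement membrane genes, 4 to 5 and 2 to 3 for basal epithelium, and 1 to 14 and 0 to 6 for neighbours. With the GC and length correction, 2694 of all genes were higher, the partners had 1 higher and 1 lower, the nephronectin receptors 2 and 2, and the neighbours 10 and 5. By the fold and p rule of the study's methods there were 445 higher and 512 lower, with 0 receptors, 3 ureteric bud genes and 2 basement membrane genes higher, 2 basement membrane genes lower, and 1 neighbour higher and 0 lower. With at least 10 counts in every sample, 4 ureteric bud genes were higher, and 2 basal epithelium genes were higher and 1 lower, since fewer genes were tested. DESeq2's size factors gave 5 lower neighbours, and a window of 2 Mb gave 11 higher and 11 lower. Per kb of coding length, Fras1 had 0.903 CPM in MPC-PTX, Frem2 0.0590 in MPC, and Npnt 310.5 in MPC and 229 in MPC-PTX. Egfl6 ran from -0.45 to 0.14 as libraries were left out, turning sign without MPC replicate 3, and Gripap1 turned to 0.0064 with the library size alone and 0.018 with the GC and length correction. Apart from the stricter filter, the cause of these shifts was not tested.

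Same-numbered libraries did not deviate together throughout, with correlations of 0.151, -0.0227 and 0.173 for the 3 numbers, and replicates 1 and 3 correlated best with their own number. With the replicate block, 1787 genes were higher and 1717 lower, 1 partner (Kif5b) was higher, and 8 neighbours were higher. Of 59 single genes that were called, 41 kept their call and direction under all alternatives that gave a value.

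Depth limits Frem2, Frem1 and Grip1, whose absence or direction cannot be read beyond the limit of 3 counts per line.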
